A study of Homo sapiens with 8 samples.

Results

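Collagen chains were taken as all rows of the count file whose symbol is COL, a number, A and a number. The rule found 44 genes among 26364, and 43 of them had a count in at least 1 library. Of these chains 32 held enough counts to be tested, and 12 did not. They were separated into 11 fibrillar chains, 8 basement membrane chains and 25 other chains, of which 11, 7 and 14 were tested.

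Collagens are proteins of the extracellular matrix that are built from 3 chains wound into a triple helix. Fibrillar collagens assemble into the banded fibrils of connective tissue, type IV collagen forms the network of basement membranes, and the other families coat fibrils, form beaded or anchoring filaments or span the plasma membrane. In the brain, collagen is largely found in the basement membrane of vessels and in the meninges, and glioblastoma cells are known to lay down a matrix that also holds collagen.

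The cells were LN229, an established human glioblastoma line, in the form of stable G418-resistant clones that carry Survivin fused to eGFP on a pcDNA3.1 plasmid. In Surv-GFP (clone D6) the nuclear export sequence (NES) of Survivin is functional and the fusion protein is mainly cytoplasmic, whereas in SurvNESmut-GFP (clone L2) a pair of leucines of the NES is replaced by alanine and the protein is mainly nuclear. Each was either left untreated or exposed to 50 µM temozolomide (TMZ, an alkylating drug dissolved in DMSO) for 48 h, with 2 RNA-seq libraries, a and b, in each of the 4 groups. The study describes this RNA-seq set as independent biological replicates, each measured in technical duplicate, but the labels do not say which of these the letters a and b stand for. The spread between them may thus be biological or technical, and errors and p-values measure only the spread between these libraries. Each variant is 1 clone, and the location of Survivin and any other difference between the clones cannot be told apart.

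The libraries held between 15826923 and 18861603 reads on genes. Levels are given as CPM, the usual scaling of reads to a fixed library size, after TMM scaling, with factors from 0.978 to 1.02. Between the letters the counts of SurvNESmut-GFP with TMZ spread most (chi-square per degree of freedom 5.74, against 2.2 to 2.66 in the other groups). BIRC5, the gene of Survivin, whose coding reads can come from the plasmid or the endogenous gene, stood at 1133 ± 27.9, 1984 ± 64.6, 411 ± 5.22 and 258 ± 6.89 CPM (mean ± SD, n = 2) in untreated and TMZ-exposed Surv-GFP and untreated and TMZ-exposed SurvNESmut-GFP. CDKN1A, which encodes p21, stood at 81.9 ± 6.60, 941 ± 47.8, 118 ± 1.07 and 460.3 ± 44.6 CPM in the same order. Of the neural and glioma markers 9 of 10 exceeded 1 CPM in some library (summed level 6409 to 6497 CPM in untreated Surv-GFP, 4224 to 4336 with TMZ, 4765 to 4964 in untreated SurvNESmut-GFP and 4221 to 4343 with TMZ), while GFAP stayed below 1 CPM. Markers of fibroblasts and mural cells summed to 125 to 157 CPM (7 of 8 above 1 CPM), those of epithelial cells to 141 to 312 CPM, all but a trace of it KRT8 and KRT18. The 6 endothelial markers never summed to more than 1.08 CPM and the 5 blood markers to more than 0.252 CPM. Their part in the results was not tested. In such bulk samples, fewer cells that make a transcript and less of it per cell cannot be told apart.

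Reads of collagen chains made up 0.419% to 0.793% of all reads on genes. Summed over the 44 chains, the level was 5037 ± 162 CPM in untreated Surv-GFP and 4338 ± 251 CPM with TMZ, against 8091 ± 20.4 CPM in untreated SurvNESmut-GFP and 7762 ± 172 CPM with TMZ. All 4 SurvNESmut-GFP libraries lay above all 4 Surv-GFP libraries. The sum over fibrillar chains did not follow this order. It was 2043 ± 69.6 and 1991 ± 19.7 CPM in the untreated clones and lower in each TMZ group, at 1371 ± 97.8 CPM in Surv-GFP and 1603 ± 19.6 CPM in SurvNESmut-GFP. Basement membrane chains summed to 911 ± 32.9 CPM in untreated Surv-GFP, 644 ± 32.0 CPM with TMZ, 2694 ± 31.4 CPM in untreated SurvNESmut-GFP and 2552 ± 108 CPM with TMZ. Their sum was thus 2.96-fold higher in SurvNESmut-GFP without TMZ and 3.97-fold higher with it. COL4A2, COL4A1 and COL18A1 held most of these reads. Of the 7 tested chains of this class, 4 were higher and 3 lower in untreated SurvNESmut-GFP. The other chains summed to 2083 ± 59.9, 2324 ± 122, 3407 ± 8.66 and 3607 ± 44.3 CPM in the same order. As shares of collagen reads, fibrillar chains took 40.6% in untreated Surv-GFP and 24.6% in untreated SurvNESmut-GFP, and basement membrane chains 18.1% and 33.3%. These sums are descriptions, since an exact permutation test of 2 libraries against 2 cannot reach a p of 0.05.

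**Figure D1:**
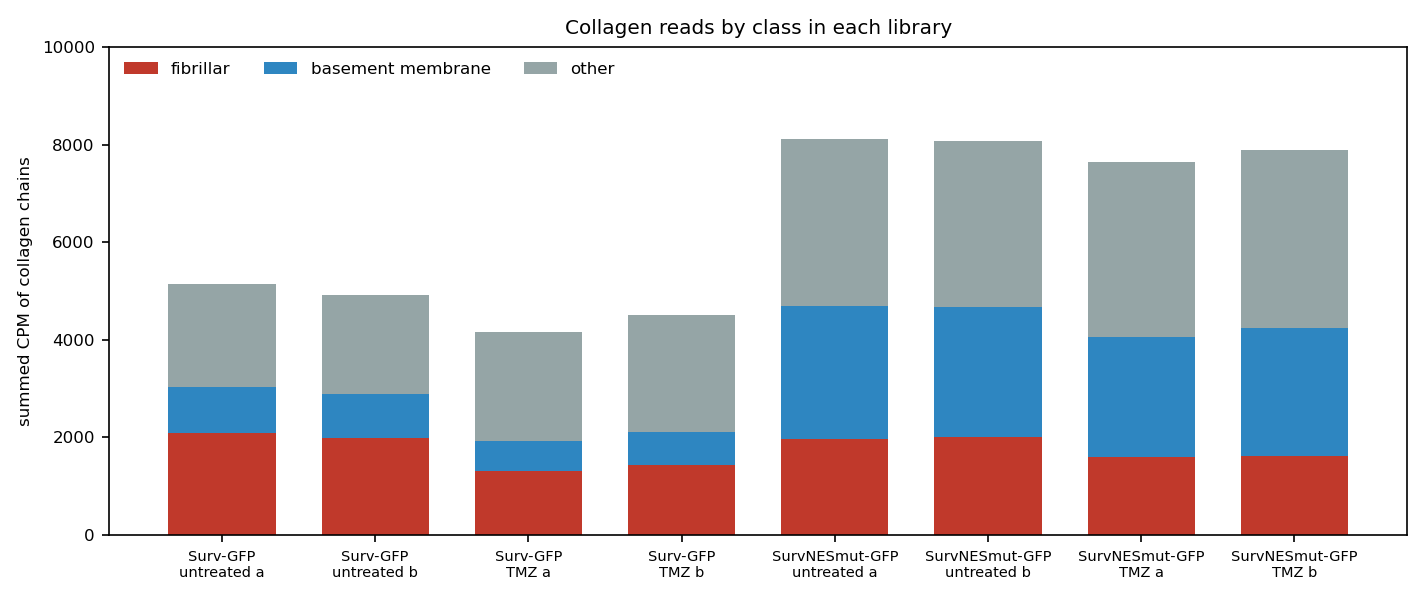
Summed level of the collagen chains in each of the 8 libraries, in CPM on a linear axis from 0, with fibrillar chains in red, basement membrane chains in blue and other chains in grey. The bars of SurvNESmut-GFP reach 7640 to 8105 CPM and those of Surv-GFP 4160 to 5152 CPM, and the blue part differs most between the clones.

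Each chain was then compared in 1 model over all genes (edgeR's quasi-likelihood F test with Benjamini-Hochberg adjustment over 14201 tested genes, threshold 0.05), and a chain is said to rise or fall only past this threshold. With TMZ, 5 chains rose and 14 fell in Surv-GFP, where 30.1% of all tested genes rose and 28.9% fell (58.9% in either direction). The median log2 fold change of the 32 chains was -0.22, beside 0.00 over all tested genes. In SurvNESmut-GFP 9 chains rose and 11 fell, where 18.6% of all genes rose and 19.1% fell (37.8% in either direction), and the median of the chains was -0.07. Of the 32 chains 2 fell by over 2-fold in each clone and 0 rose by that much (0 also at an unadjusted p below 0.05 and by DESeq2), while 10.5% and 4.13% of all tested genes changed by over 2-fold and past the threshold in Surv-GFP and SurvNESmut-GFP. The change with TMZ itself differed between the clones for 17 chains, with 10 larger and 7 smaller log2 fold changes in SurvNESmut-GFP, where 16.6% of all genes had a larger and 20.2% a smaller one (36.8% in all). Larger and smaller TMZ effects are meant with their sign, here and below, so that a deeper fall counts as smaller. Without TMZ, 20 chains were higher and 11 lower in SurvNESmut-GFP than in Surv-GFP, where 34.7% of all genes were higher and 29.4% lower (64.1% in all), and the medians were 0.68 and 0.03. With TMZ, 22 chains were higher and 6 lower, against 34.5% and 34.7% of all genes (69.2% in all). By over 2-fold, 14 chains were higher and 5 lower without TMZ, and 15.6% of all tested genes differed by that much in either direction.

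**Figure D2:**
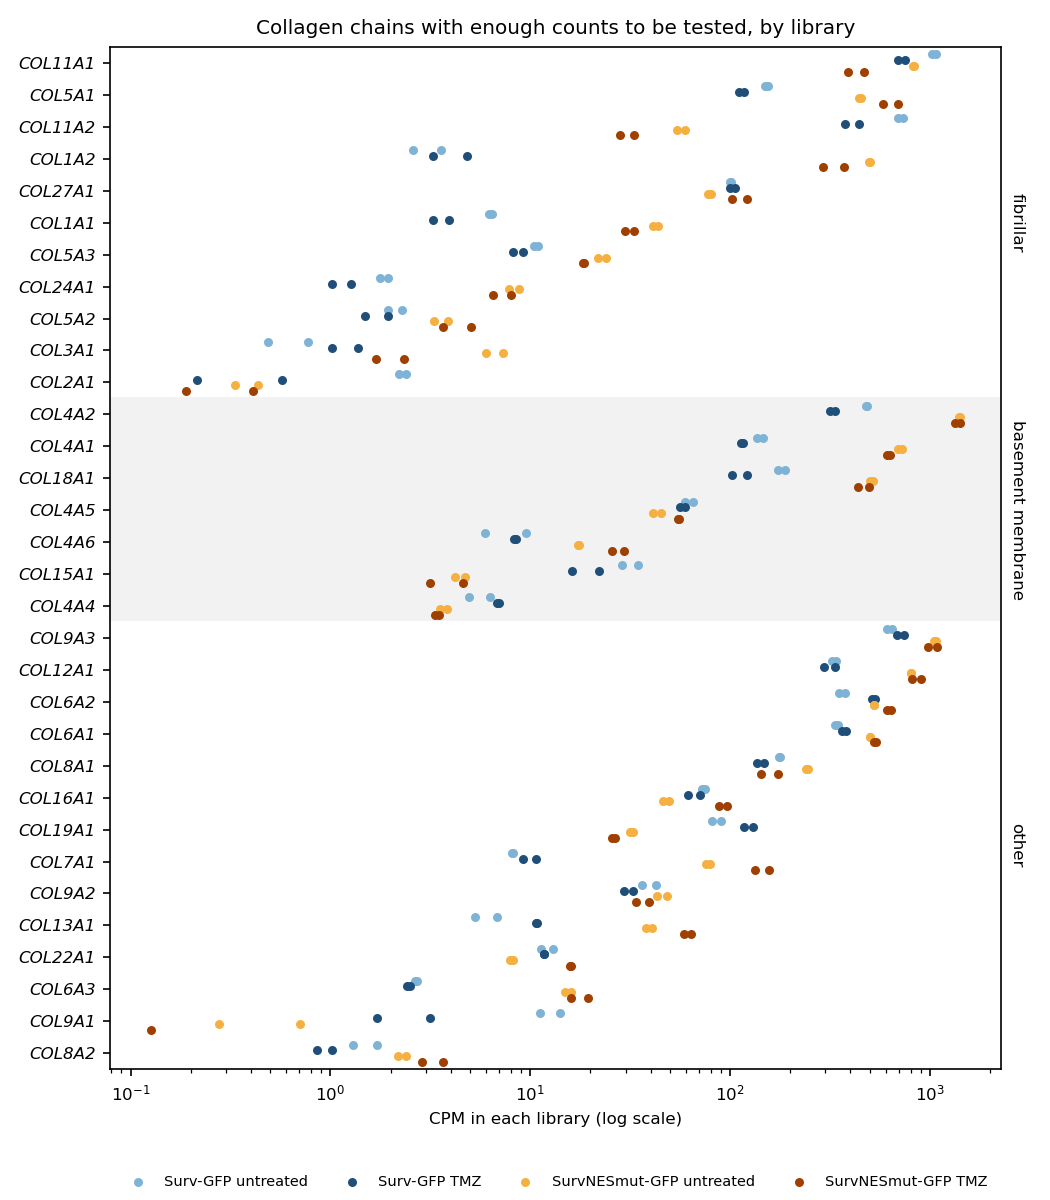
Level of each of the 32 tested collagen chains in each library, in CPM on a log axis, with 1 point per library and chains grouped by class, the 1 point at 0 (COL9A1 in a TMZ-exposed SurvNESmut-GFP library) not drawn. For COL1A2, COL7A1 and COL4A1 both orange groups lie far to the right of both blue groups, while for COL11A2, COL15A1 and COL9A1 they lie to the left.

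Of the 11 fibrillar chains, 7 fell and 0 rose with TMZ in Surv-GFP by edgeR (median log2 fold change -0.42), beside 28.9% and 30.1% of all tested genes. At an unadjusted p below 0.05, 1 rose, and by DESeq2 0 rose. In SurvNESmut-GFP 6 fell and 2 rose (median -0.33), beside 19.1% and 18.6% of all tested genes. Between the untreated clones all 11 differed, with 7 higher and 4 lower in SurvNESmut-GFP, beside 34.7% and 29.4% of all tested genes (64.1% in all).

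Type I collagen, the main collagen of skin, bone and scar, is a trimer of COL1A1 and COL1A2 chains. COL1A2 was scarce in Surv-GFP, at 3.58 and 2.59 CPM in the untreated libraries and 3.26 and 4.82 CPM with TMZ. In SurvNESmut-GFP it stood at 499.7 and 495 CPM untreated and 292 and 371 CPM with TMZ. The clones did not overlap, and the difference was 161-fold without TMZ (log2 fold change 7.33, SE 0.14, adjusted p = 1.32e-15) and 82.3-fold with TMZ. Without TMZ this was the widest of all tested chains. With TMZ the order is not settled, since COL9A1 had 2 counts in SurvNESmut-GFP against 87 in Surv-GFP, a ratio of 39.7 with a 95% counting interval from 10.7 to 333. COL1A2 fell with TMZ in SurvNESmut-GFP (log2 fold change -0.59, SE 0.09, adjusted p = 5.35e-05), while in Surv-GFP it did not pass the threshold (log2 fold change 0.38, SE 0.26, adjusted p = 0.236). The changes differed between the clones (log2 fold change -0.97, SE 0.28, adjusted p = 0.0122). That call was lost without library b of untreated Surv-GFP (adjusted p = 0.0806) and without library b of TMZ-exposed Surv-GFP (adjusted p = 0.154). COL1A1 followed the same order between clones at a smaller size, with 6.45 and 6.18 CPM in untreated Surv-GFP, 3.90 and 3.27 CPM with TMZ, 41.2 and 43.8 CPM in untreated SurvNESmut-GFP and 33.2 and 29.9 CPM with TMZ. None of the 4 groups overlapped another. It was 6.72-fold higher in untreated SurvNESmut-GFP (log2 fold change 2.75, SE 0.10, adjusted p = 7.52e-13) and fell with TMZ in Surv-GFP (log2 fold change -0.81, SE 0.15, adjusted p = 2.58e-04) and in SurvNESmut-GFP (log2 fold change -0.43, SE 0.08, adjusted p = 4.44e-04).

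COL3A1, the chain of type III collagen that accompanies type I in soft tissues, changed unequally with TMZ in the clones. Its levels were low, at 0.488 and 0.773 CPM in untreated Surv-GFP, 1.02 and 1.38 CPM with TMZ, 6.02 and 7.28 CPM in untreated SurvNESmut-GFP and 1.70 and 2.33 CPM with TMZ. The groups did not overlap, and the untreated SurvNESmut-GFP libraries were the highest. COL3A1 fell in SurvNESmut-GFP (log2 fold change -1.73, SE 0.22, adjusted p = 9.73e-06), while in Surv-GFP it stayed just short of the threshold (log2 fold change 0.91, SE 0.38, adjusted p = 0.0510) and passed it without library b of untreated Surv-GFP (adjusted p = 0.0496) or library a (0.0379) or b (0.0381) of TMZ-exposed SurvNESmut-GFP, and with the replicate letter as a block (0.0329). The difference of the TMZ effects was the most negative of the chains (log2 fold change -2.64, SE 0.44, adjusted p = 2.04e-04). Without TMZ the clones differed 10.5-fold (log2 fold change 3.39, SE 0.27, adjusted p = 1.17e-08). With TMZ they differed 1.68-fold (log2 fold change 0.75, SE 0.30, adjusted p = 0.0376, or 0.0975 by DESeq2). The last call was lost without library a of TMZ-exposed Surv-GFP (adjusted p = 0.250) and without library b of TMZ-exposed SurvNESmut-GFP (adjusted p = 0.269).

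Type V chains regulate the diameter of type I fibrils. COL5A1, the most abundant of them, stood at 155 and 149.8 CPM in untreated Surv-GFP and 111 and 117 CPM with TMZ, and at 441 and 454 CPM in untreated SurvNESmut-GFP and 694 and 581 CPM with TMZ. The groups did not overlap. It fell with TMZ in Surv-GFP (log2 fold change -0.42, SE 0.07, adjusted p = 7.65e-05) and rose in SurvNESmut-GFP (log2 fold change 0.51, SE 0.07, adjusted p = 1.25e-05), and the difference of these changes passed the test (log2 fold change 0.93, SE 0.10, adjusted p = 1.64e-06). COL5A2 was scarce, from 1.5 to 5.03 CPM over the 8 libraries. Its level was higher in SurvNESmut-GFP, with TMZ (log2 fold change 1.34, SE 0.24, adjusted p = 9.23e-05) and without (log2 fold change 0.77, SE 0.23, adjusted p = 0.00795). The latter was lost without library b of untreated Surv-GFP (adjusted p = 0.0652) or library b of untreated SurvNESmut-GFP (adjusted p = 0.0728), and neither TMZ effect passed the threshold. COL5A3, 4% of whose exon length overlaps an antisense gene on the other strand, was 8.21 to 10.9 CPM in Surv-GFP and 18.4 to 23.8 CPM in SurvNESmut-GFP, with no overlap between clones. Its TMZ effects were small, at -0.29 (adjusted p = 0.0397) and -0.31 (adjusted p = 0.0137) on the log2 scale. Neither effect passed the threshold by DESeq2 (adjusted p = 0.102 and 0.0865). The first was lost without library a (adjusted p = 0.0821) or b (0.154) of untreated Surv-GFP or library b of TMZ-exposed Surv-GFP (0.162), and the second without library a of untreated SurvNESmut-GFP (0.122).

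The cartilage-type fibrillar chains ran the other way between the untreated clones. Type XI collagen forms the thin fibrils of cartilage together with type II, and its chain COL11A1 had the most reads of all chains in both Surv-GFP groups. COL11A1 stood at 1072 and 1028 CPM in untreated Surv-GFP, 695 and 753 CPM with TMZ, 821 and 830.3 CPM in untreated SurvNESmut-GFP and 389 and 467 CPM with TMZ. Its level fell with TMZ in both clones, and more so in SurvNESmut-GFP (log2 fold change -0.95, SE 0.07, adjusted p = 1.79e-08) than in Surv-GFP (log2 fold change -0.54, SE 0.07, adjusted p = 3.26e-06), with a difference of -0.41 (adjusted p = 0.00270). COL11A2, its partner chain, stood at 737 and 689 CPM in untreated Surv-GFP, 376 and 442 CPM with TMZ, 54.4 and 59.5 CPM in untreated SurvNESmut-GFP and 28.1 and 32.9 CPM with TMZ. It was 12.5-fold lower in untreated SurvNESmut-GFP (log2 fold change -3.65, SE 0.08, adjusted p = 3.17e-15), against 1.27-fold for COL11A1. With TMZ it fell in both clones, by 0.80 and 0.90 on the log2 scale, and the difference of -0.10 did not pass the threshold. COL2A1, the chain of type II collagen, was at 2.38 and 2.21 CPM in untreated Surv-GFP and at most 0.574 CPM in the other 6 libraries. It fell with TMZ in Surv-GFP (log2 fold change -2.54, SE 0.38, adjusted p = 2.24e-05). The difference between clones of the TMZ effect of COL2A1 was 2.21 (adjusted p = 0.0347), a call that was lost when any of 6 libraries was left out (adjusted p from 0.0558 to 0.328 without library a or b of untreated Surv-GFP, library a of TMZ-exposed Surv-GFP, library a or b of untreated SurvNESmut-GFP or library a of TMZ-exposed SurvNESmut-GFP).

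COL24A1 and COL27A1 are fibrillar chains with short interruptions of the helix. COL24A1 was 1.02 to 1.95 CPM in Surv-GFP and 6.55 to 8.78 CPM in SurvNESmut-GFP, a difference of 2.16 on the log2 scale without TMZ (adjusted p = 3.28e-08). Its fall with TMZ in Surv-GFP (log2 fold change -0.71, SE 0.28, adjusted p = 0.0393) was lost without library a (adjusted p = 0.154) or b (0.0738) of untreated Surv-GFP or library a of TMZ-exposed Surv-GFP (0.205). By DESeq2 this fall of COL24A1 was lost as well (adjusted p = 0.0745). COL27A1 was 77.8 and 80.6 CPM in untreated SurvNESmut-GFP and higher in the other 6 libraries, where it reached 121 CPM. It rose with TMZ in SurvNESmut-GFP (log2 fold change 0.49, SE 0.07, adjusted p = 2.60e-05), its change in Surv-GFP was 0.03, and the difference passed the test (adjusted p = 0.00124).

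**Figure D3:**
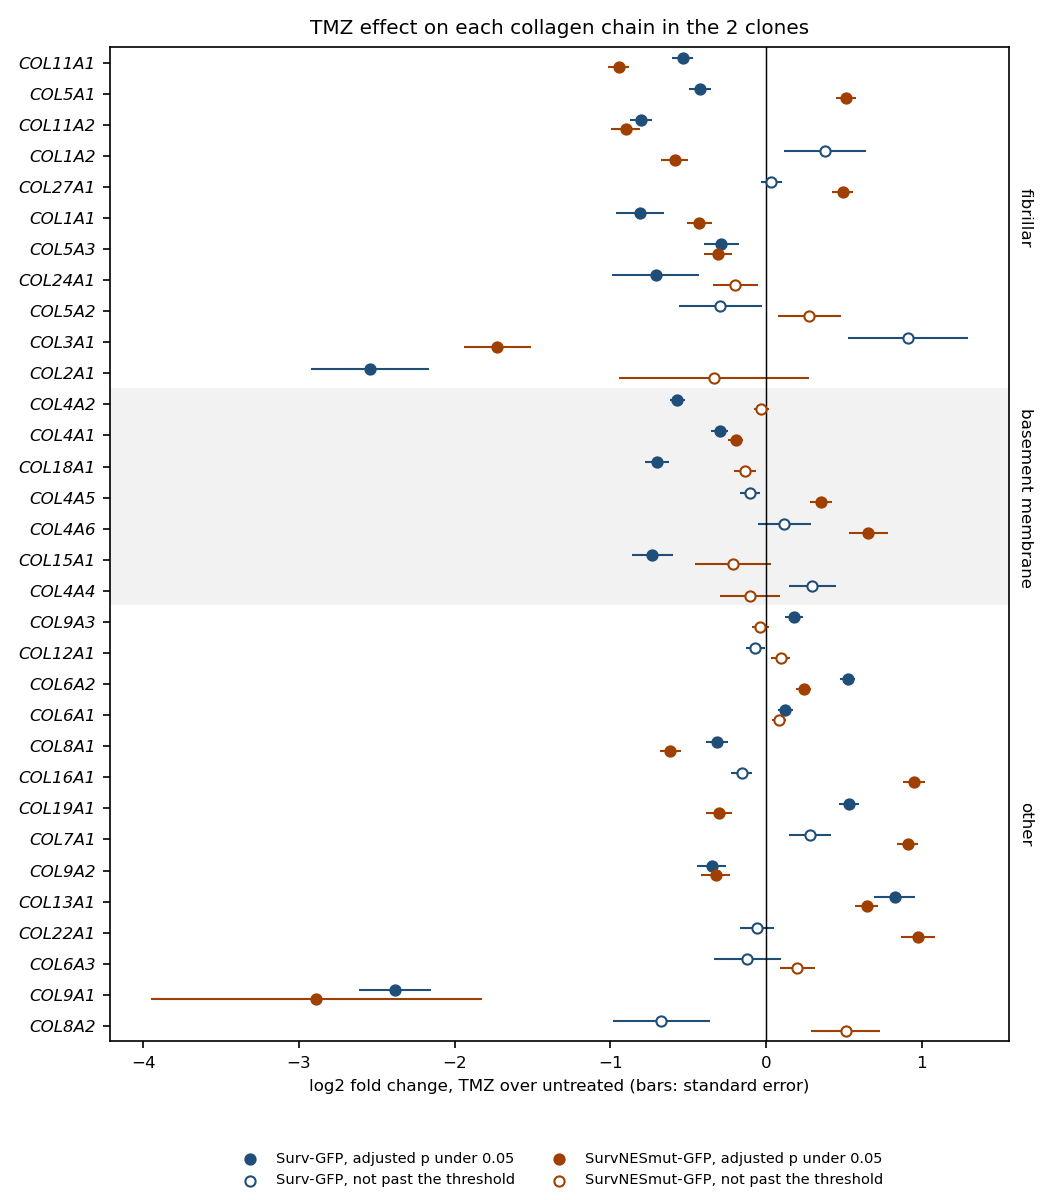
TMZ effect on each of the 32 tested collagen chains, as log2 fold change of TMZ over untreated with its standard error, in Surv-GFP (blue) and SurvNESmut-GFP (brown), filled where the adjusted p is under 0.05. COL5A1 and COL19A1 have filled points on opposite sides of 0, and COL3A1 and COL16A1 show wide gaps between the clones.

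Of the 7 tested basement membrane chains, 4 fell and 0 rose with TMZ in Surv-GFP by edgeR (median log2 fold change -0.30), beside 28.9% and 30.1% of all tested genes. At an unadjusted p below 0.05 or by DESeq2, 0 of these chains rose. In SurvNESmut-GFP 1 fell and 2 rose (median -0.10), beside 19.1% and 18.6% of all tested genes. Between untreated clones 4 were higher and 3 lower in SurvNESmut-GFP, beside 34.7% and 29.4% of all tested genes.

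Type IV collagen is encoded by pairs of genes that stand head to head. The RefSeq windows of 300 bases (250 before to 50 after the start of transcription, GRCh38.p14) are shown for the pairs COL4A1 and COL4A2 and COL4A5 and COL4A6, since the members of the first pair differed between clones in the same direction and those of the second in opposite directions. Capitals mark CCAAT and GGGCGG on either strand.
COL4A1, chr13:110307108-110307407, minus strand: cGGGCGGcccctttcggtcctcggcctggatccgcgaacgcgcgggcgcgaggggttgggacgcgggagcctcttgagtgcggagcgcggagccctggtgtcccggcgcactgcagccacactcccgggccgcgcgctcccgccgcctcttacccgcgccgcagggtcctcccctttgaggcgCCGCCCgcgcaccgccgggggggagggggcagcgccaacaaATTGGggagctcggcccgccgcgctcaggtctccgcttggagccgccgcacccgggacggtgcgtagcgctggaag
COL4A2, chr13:110307034-110307333, plus strand: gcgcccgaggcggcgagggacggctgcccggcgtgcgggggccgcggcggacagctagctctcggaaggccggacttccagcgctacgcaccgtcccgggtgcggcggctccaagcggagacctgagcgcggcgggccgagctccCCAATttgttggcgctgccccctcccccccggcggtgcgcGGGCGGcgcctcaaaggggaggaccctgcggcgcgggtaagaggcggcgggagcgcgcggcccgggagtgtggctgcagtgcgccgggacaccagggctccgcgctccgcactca
COL4A5, chrX:108439588-108439887, plus strand: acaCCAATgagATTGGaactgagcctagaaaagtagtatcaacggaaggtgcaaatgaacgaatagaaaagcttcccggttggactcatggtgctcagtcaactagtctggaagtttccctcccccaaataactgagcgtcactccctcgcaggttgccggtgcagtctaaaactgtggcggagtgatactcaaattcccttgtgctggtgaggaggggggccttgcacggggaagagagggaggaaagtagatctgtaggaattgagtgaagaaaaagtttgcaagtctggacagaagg
COL4A6, chrX:108439409-108439708, minus strand: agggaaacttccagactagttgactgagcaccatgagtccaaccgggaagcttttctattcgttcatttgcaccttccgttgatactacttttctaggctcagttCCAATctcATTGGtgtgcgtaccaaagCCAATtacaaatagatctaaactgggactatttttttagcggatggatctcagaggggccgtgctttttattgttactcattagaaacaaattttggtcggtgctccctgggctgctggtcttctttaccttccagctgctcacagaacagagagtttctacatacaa

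The windows of COL4A1 and COL4A2 share 226 bases, so that 1 CCAAT and 1 GGGCGG count as matches in both, on opposite strands. The window of COL4A5 and the one shown for COL4A6 share 121 bases. These hold the 2 CCAAT matches of the COL4A5 window, so the members of either pair share CCAAT matches. COL4A6 has another window, chrX:108438373-108438672, which is not shown. That window does not overlap the COL4A5 window and holds GGGCGG but no CCAAT on either strand. Windows were given for 23 of the 32 tested chains, 31 windows in all. CCAAT was found in 29% of them and in 34.6% of all 35116 windows, GGGCGG in 64.5% and 45.0%, and TATAAA in 12.9% and 11.5%, both strands counted. Such matches describe the letters only.

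COL4A2 and COL4A1 form the common type IV trimer. COL4A1 stood at 146 and 136 CPM in untreated Surv-GFP, 116 and 114 CPM with TMZ, 723 and 694 CPM in untreated SurvNESmut-GFP and 609.7 and 628 CPM with TMZ. It was 5.03-fold higher in untreated SurvNESmut-GFP (log2 fold change 2.33, SE 0.05, adjusted p = 2.75e-15). This chain fell with TMZ in Surv-GFP (log2 fold change -0.30, SE 0.05, adjusted p = 1.29e-04) and in SurvNESmut-GFP (log2 fold change -0.20, SE 0.05, adjusted p = 0.00442), the latter not without library a of untreated SurvNESmut-GFP (adjusted p = 0.0566). COL4A2 stood at 487 and 477 CPM in untreated Surv-GFP, 316 and 334 CPM with TMZ, 1405 and 1409 CPM in untreated SurvNESmut-GFP and 1340.2 and 1418 CPM with TMZ. The clones did not overlap, and the SurvNESmut-GFP groups overlapped each other. It fell with TMZ in Surv-GFP (log2 fold change -0.57, SE 0.05, adjusted p = 2.98e-08), its log2 fold change in SurvNESmut-GFP was -0.03 (adjusted p = 0.656), and the difference passed the test (log2 fold change 0.54, SE 0.07, adjusted p = 9.84e-06).

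The second pair was expressed at lower levels. COL4A5 was 45.0 and 41.2 CPM in untreated SurvNESmut-GFP and 54.9 to 65.1 CPM in the other 6 libraries. It was lower in untreated SurvNESmut-GFP (log2 fold change -0.53, SE 0.07, adjusted p = 2.92e-06), rose there with TMZ (log2 fold change 0.35, SE 0.07, adjusted p = 6.25e-04), and with TMZ the clones differed by -0.07 (adjusted p = 0.353). COL4A6 was 5.96 to 9.48 CPM in Surv-GFP, 17.4 and 17.5 CPM in untreated SurvNESmut-GFP and 29.4 and 25.6 CPM with TMZ. It was higher in untreated SurvNESmut-GFP (log2 fold change 1.17, SE 0.15, adjusted p = 3.42e-06) and rose further with TMZ (log2 fold change 0.66, SE 0.12, adjusted p = 5.47e-04), while the difference of TMZ effects, 0.54 (adjusted p = 0.0551), passed the threshold in 7 settings, among them those without library b of untreated Surv-GFP (adjusted p = 0.00269) and without library b of TMZ-exposed SurvNESmut-GFP (0.00991). Without library a of untreated Surv-GFP, COL4A6 also rose with TMZ in Surv-GFP (log2 fold change 0.49, adjusted p = 0.0233). COL4A4, a chain of the glomerular type IV network, was 3.34 to 3.83 CPM in SurvNESmut-GFP and 4.93 to 6.94 CPM in Surv-GFP. It was lower in SurvNESmut-GFP with TMZ (log2 fold change -1.01, SE 0.17, adjusted p = 5.91e-05) and without (log2 fold change -0.61, SE 0.17, adjusted p = 0.00502), the latter not without library b of untreated Surv-GFP (adjusted p = 0.0923).

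COL18A1 and COL15A1 are the multiplexins, whose C-terminal fragments are known as endostatin and restin. They differed between clones in opposite directions. COL18A1, 16.4% of whose exon length lies opposite exons of SLC19A1, stood at 187 and 174 CPM in untreated Surv-GFP, 102 and 121 CPM with TMZ, 517 and 501 CPM in untreated SurvNESmut-GFP and 435 and 493 CPM with TMZ. It was 2.81-fold higher in untreated SurvNESmut-GFP and 4.17-fold higher with TMZ (log2 fold change 2.06, SE 0.08, adjusted p = 9.52e-13). After TMZ it fell in Surv-GFP (log2 fold change -0.70, SE 0.08, adjusted p = 6.39e-07), and the change in SurvNESmut-GFP was -0.13 (adjusted p = 0.150, or 0.00566 without library b of TMZ-exposed SurvNESmut-GFP; difference 0.57, adjusted p = 4.21e-04). COL15A1 was 34.5 and 28.8 CPM in untreated Surv-GFP, 16.2 and 22.1 CPM with TMZ and 3.16 to 4.72 CPM in the 4 SurvNESmut-GFP libraries. It was 7.07-fold lower in untreated SurvNESmut-GFP (log2 fold change -2.82, SE 0.17, adjusted p = 2.94e-10) and fell with TMZ in Surv-GFP (log2 fold change -0.73, SE 0.13, adjusted p = 1.39e-04).

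**Figure D4:**
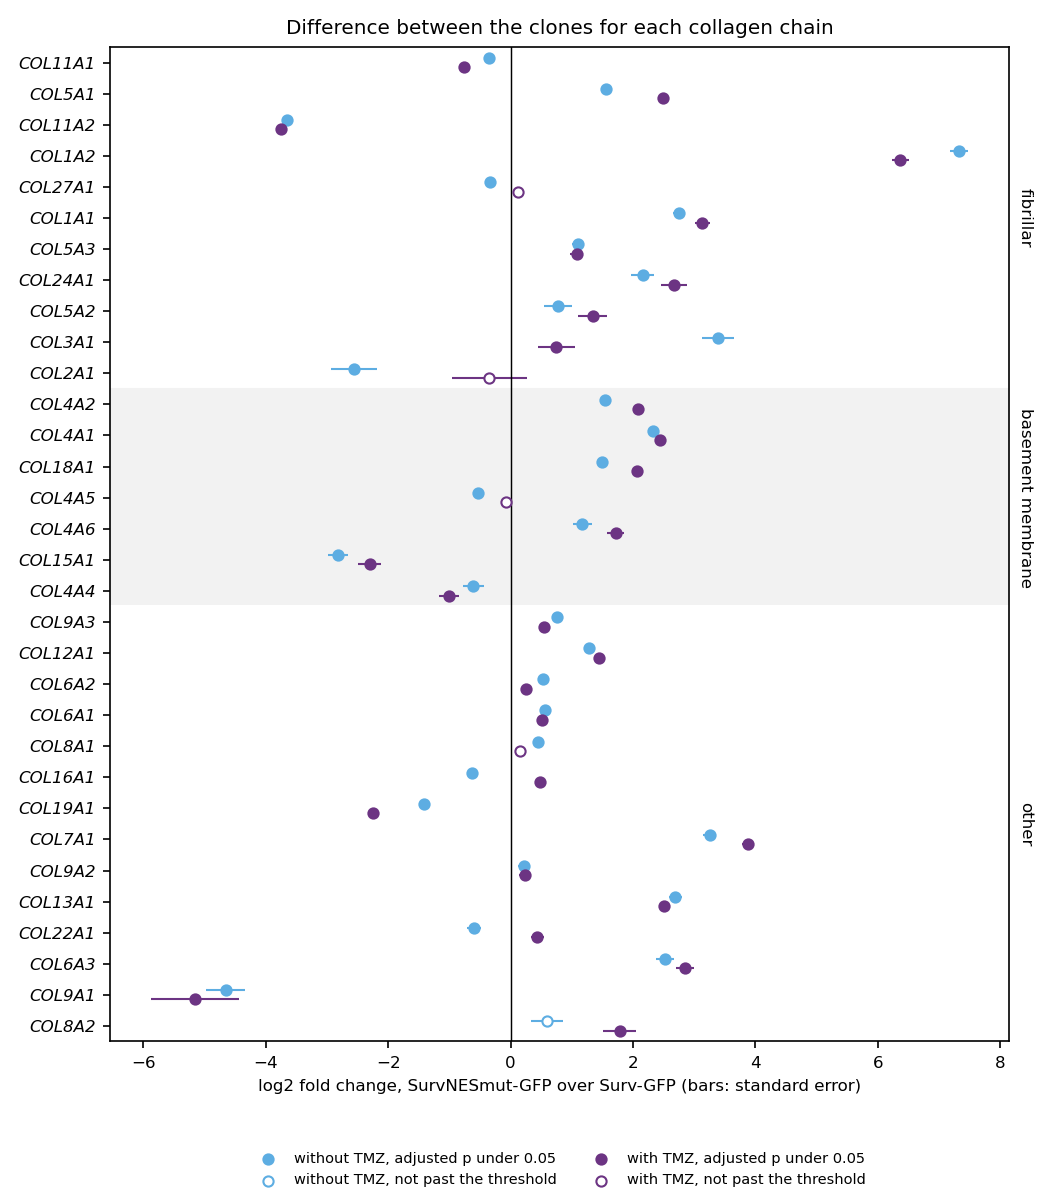
Difference between the clones for each of the 32 tested collagen chains, as log2 fold change of SurvNESmut-GFP over Surv-GFP with its standard error, without TMZ (light blue) and with TMZ (purple), filled where the adjusted p is under 0.05. COL1A2 stands furthest right, at 7.33 and 6.36, and COL9A1 and COL11A2 furthest left.

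Among the other chains, of which 14 were tested, 5 rose and 3 fell with TMZ in Surv-GFP, beside 30.1% and 28.9% of all tested genes. In SurvNESmut-GFP 5 rose and 4 fell, beside 18.6% and 19.1% of all tested genes. In untreated SurvNESmut-GFP 9 of these chains were higher and 4 lower than in Surv-GFP, beside 34.7% and 29.4% of all tested genes.

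Type VI collagen forms beaded microfilaments from COL6A1, COL6A2 and one more chain such as COL6A3. COL6A2 stood at 378 and 350.5 CPM in untreated Surv-GFP, 515 and 532 CPM with TMZ, 527 and 528 CPM in untreated SurvNESmut-GFP and 612 and 636 CPM with TMZ. It rose with TMZ in Surv-GFP (log2 fold change 0.52, SE 0.05, adjusted p = 1.26e-07) and less in SurvNESmut-GFP (log2 fold change 0.24, SE 0.05, adjusted p = 9.15e-04), with a difference of -0.28 (adjusted p = 0.00456). TMZ-exposed Surv-GFP overlapped untreated SurvNESmut-GFP. COL6A1 ranged from 335 to 380 CPM in Surv-GFP and from 499 to 540 CPM in SurvNESmut-GFP. Its TMZ effect in Surv-GFP, 0.12 (adjusted p = 0.0335), was held in 7 of 16 alternative settings and lost without library a (adjusted p = 0.0566) or b (0.192) of untreated Surv-GFP or library b of TMZ-exposed Surv-GFP (0.460). COL6A3 had few reads, at 2.41 to 2.71 CPM in Surv-GFP and 14.9 to 19.5 CPM in SurvNESmut-GFP, a 5.75-fold difference without TMZ (log2 fold change 2.52, SE 0.15, adjusted p = 3.59e-10). Neither TMZ effect of COL6A3 passed the threshold, but that in SurvNESmut-GFP did without library b of TMZ-exposed SurvNESmut-GFP (log2 fold change 0.34, adjusted p = 0.0215).

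Without TMZ the largest upward differences of this class were those of COL7A1 and COL13A1, whereas with TMZ COL6A3 (7.20-fold) came between COL7A1 and COL13A1 (5.69-fold). COL7A1, the chain of the anchoring fibrils beneath epithelia, stood at 8.13 and 8.17 CPM in untreated Surv-GFP, 9.20 and 10.7 CPM with TMZ, 75.7 and 79.3 CPM in untreated SurvNESmut-GFP and 157 and 134 CPM with TMZ. The groups did not overlap. It was 9.5-fold higher in untreated SurvNESmut-GFP and 14.7-fold higher with TMZ (log2 fold change 3.87, SE 0.09, adjusted p = 5.85e-15), and it rose with TMZ in SurvNESmut-GFP (log2 fold change 0.91, SE 0.07, adjusted p = 3.61e-08) by more than in Surv-GFP, where the log2 fold change was 0.28 (adjusted p = 0.0848, or 0.0295 and 0.0291 without library a or b of TMZ-exposed SurvNESmut-GFP; difference 0.63, adjusted p = 0.00430). COL13A1, a collagen that spans the plasma membrane, stood at 5.31 and 6.84 CPM in untreated Surv-GFP, 10.9 and 10.7 CPM with TMZ, 37.8 and 40.5 CPM in untreated SurvNESmut-GFP and 63.8 and 58.6 CPM with TMZ. It rose with TMZ in both clones, by 0.83 (adjusted p = 4.27e-05) and 0.65 (adjusted p = 5.32e-06) on the log2 scale, with no difference of effects past the threshold (adjusted p = 0.386).

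The FACIT collagens decorate the surface of fibrils. Type IX collagen, which coats the fibrils of cartilage, has 3 chains, and these did not move together. COL9A3 stood at 645 and 608 CPM in untreated Surv-GFP, 681 and 739 CPM with TMZ, 1068 and 1054 CPM in untreated SurvNESmut-GFP and 979.9 and 1088 CPM with TMZ, and was higher in untreated SurvNESmut-GFP (log2 fold change 0.76, SE 0.06, adjusted p = 5.14e-09). COL9A1 stood at 14 and 11.1 CPM in untreated Surv-GFP, 1.71 and 3.16 CPM with TMZ, 0.705 and 0.278 CPM in untreated SurvNESmut-GFP and 0 and 0.126 CPM with TMZ. It fell with TMZ in Surv-GFP (log2 fold change -2.38, SE 0.23, adjusted p = 1.84e-07) and was 25.2-fold lower in untreated SurvNESmut-GFP (log2 fold change -4.65, SE 0.32, adjusted p = 1.85e-09). Only 2 counts were left in SurvNESmut-GFP with TMZ, against 18 without, a ratio of 8.14 with a 95% counting interval from 1.95 to 72.4. That fall had an adjusted p of 0.0418 and was lost without library a of untreated SurvNESmut-GFP (adjusted p = 0.303) or library a of TMZ-exposed SurvNESmut-GFP (0.181). COL9A2 ranged from 29.4 to 48.1 CPM over the 8 libraries.

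Small calls in type IX depended on single libraries or on the processing. The rise of COL9A3 with TMZ in Surv-GFP (0.18, adjusted p = 0.0111) was lost without library b of untreated Surv-GFP (adjusted p = 0.115) or library b of TMZ-exposed Surv-GFP (0.298). The difference of its TMZ effects (-0.22, adjusted p = 0.0402) was lost in 9 of 15 settings, among them those without library b of untreated Surv-GFP (0.158), library b of TMZ-exposed Surv-GFP (0.301), library a (0.106) or b (0.0807) of untreated SurvNESmut-GFP or library a of TMZ-exposed SurvNESmut-GFP (0.0909). COL9A2 fell with TMZ in Surv-GFP (adjusted p = 0.00446), not without library a of untreated (0.105) or TMZ-exposed Surv-GFP (0.0661). It fell in SurvNESmut-GFP (adjusted p = 0.0105), not without library a of untreated (0.136) or TMZ-exposed SurvNESmut-GFP (0.0827). Its differences between the clones, 0.21 without TMZ and 0.24 with TMZ, had adjusted p values of 0.0483 and 0.0384. By DESeq2 these values were 0.163 and 0.0861. The first difference held in 6 of 16 alternative settings and was lost with library size alone as scaling (adjusted p = 0.134). The first was lost without library b of untreated Surv-GFP (0.422), library a (0.104) or b (0.0940) of TMZ-exposed Surv-GFP or library a of untreated SurvNESmut-GFP (0.342), and the second without library a of TMZ-exposed Surv-GFP (0.366) or library b of TMZ-exposed SurvNESmut-GFP (0.417).

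COL12A1, a FACIT of tendon and stressed tissue, was 296 to 337 CPM in Surv-GFP and 805 to 902 CPM in SurvNESmut-GFP. It was 2.43-fold higher in untreated SurvNESmut-GFP (log2 fold change 1.28, SE 0.06, adjusted p = 1.86e-11), and its TMZ effects were -0.07 (adjusted p = 0.355) and 0.09 (adjusted p = 0.230). These passed the threshold without library b of TMZ-exposed Surv-GFP (log2 fold change -0.19, adjusted p = 0.0285) and without library b of TMZ-exposed SurvNESmut-GFP (0.17, adjusted p = 0.0158). COL16A1, which joins fibrils and microfibrils, stood at 74.9 and 72.7 CPM in untreated Surv-GFP, 61.7 and 70.9 CPM with TMZ, 46.3 and 49.3 CPM in untreated SurvNESmut-GFP and 96.4 and 88.1 CPM with TMZ. In Surv-GFP its TMZ effect was -0.16 (adjusted p = 0.0590). This passed the threshold as a fall in 8 alternative settings, among them library size alone as scaling (adjusted p = 0.0317) and no filter on low counts (0.0181). The level of COL16A1 was the lowest of the 4 groups in untreated SurvNESmut-GFP and the highest there with TMZ (log2 fold change 0.95, SE 0.07, adjusted p = 2.43e-08). The difference of its TMZ effects was 1.11 (SE 0.10, adjusted p = 2.91e-07). COL22A1, a collagen of tissue junctions, went the same way, from 8.19 and 7.95 to 15.8 and 15.9 CPM with TMZ in SurvNESmut-GFP (log2 fold change 0.98, SE 0.11, adjusted p = 3.52e-06), while Surv-GFP held 11.4 to 13.1 CPM in all 4 libraries. Opposite changes were found for COL19A1, a FACIT of muscle and brain, with 89.7 and 81.1 CPM in untreated Surv-GFP, 117 and 130.4 CPM with TMZ, 31.7 and 32.7 CPM in untreated SurvNESmut-GFP and 25.5 and 26.7 CPM with TMZ. It rose in Surv-GFP (log2 fold change 0.53, SE 0.06, adjusted p = 1.54e-06) and fell in SurvNESmut-GFP (log2 fold change -0.30, SE 0.08, adjusted p = 0.00833), the latter not without library b of untreated SurvNESmut-GFP (adjusted p = 0.0626). The difference of its effects was -0.84 (adjusted p = 1.06e-05).

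Type VIII collagen is a short-chain collagen of vessel walls and the cornea. COL8A1 was 178 and 177 CPM in untreated Surv-GFP, 137 and 149 CPM with TMZ, 246 and 239.7 CPM in untreated SurvNESmut-GFP and 144 and 174 CPM with TMZ. With TMZ it fell in both clones, by 0.31 and 0.61 on the log2 scale (adjusted p = 0.00107 and 3.43e-06). The difference of these changes (-0.30, adjusted p = 0.0250) was lost when any of 6 libraries was left out (adjusted p from 0.0573 to 0.171 without library a or b of untreated Surv-GFP, library b of TMZ-exposed Surv-GFP, library a or b of untreated SurvNESmut-GFP or library a of TMZ-exposed SurvNESmut-GFP). COL8A2 was 0.861 to 1.71 CPM in Surv-GFP and 2.17 to 3.66 CPM in SurvNESmut-GFP, and higher there with TMZ (log2 fold change 1.78, SE 0.27, adjusted p = 1.93e-05). The difference of the TMZ effects of COL8A2 (1.18, adjusted p = 0.0230) was lost by DESeq2 (adjusted p = 0.100). It was also lost without library b of any of the 4 groups (log2 differences from 0.97 to 1.11).

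The remaining 12 chains were not tested. COL10A1, COL14A1, COL17A1, COL20A1, COL21A1, COL23A1, COL25A1, COL26A1, COL28A1, COL4A3 and COL6A6 had at most 8 counts in any library, and COL6A5 had 0 counts in all 8 libraries, where up to 3 counts per library are allowed by counting error.

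Levels of different chains were compared as RPKM, CPM per kilobase of the gene's exons in GENCODE release 29. COL9A3 had the highest level per length in all 4 groups, with a mean of 129 RPKM in untreated Surv-GFP, 147 with TMZ, 219 in untreated SurvNESmut-GFP and 214 with TMZ. In untreated Surv-GFP it was followed by COL11A1 (115 RPKM), COL11A2 (106 RPKM), COL6A2 (67.6 RPKM) and COL6A1 (63.8 RPKM). COL6A2 (65.1 and 70.1 RPKM in libraries b and a) and COL6A1 (62.7 and 64.9 RPKM) differed by little more than the spread of their libraries, while COL11A1 (113 and 118 RPKM) and COL11A2 (102 and 109 RPKM) stood further apart. In untreated SurvNESmut-GFP the order after COL9A3 was COL6A2 (97.9 RPKM), COL6A1 (93.8 RPKM), COL11A1 (90.8 RPKM) and COL4A2 (72.9 RPKM). With the longest transcript in place of all exons, COL4A2 moved from rank 5 to rank 2 in that group, so its place depends on the length chosen.

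Ratios per length between chains of a shared trimer differed between the clones. For COL1A1 over COL1A2 the ratio was 2.05 and 2.71 in the untreated Surv-GFP libraries, 1.36 and 0.771 with TMZ, 0.0937 and 0.100 in untreated SurvNESmut-GFP and 0.129 and 0.0915 with TMZ. COL1A2 was thus the scarcer chain per length in 3 of 4 Surv-GFP libraries and the more abundant one in all 4 SurvNESmut-GFP libraries. COL11A2 over COL11A1 went from 0.928 and 0.904 in untreated Surv-GFP to 0.0895 and 0.0966 in untreated SurvNESmut-GFP, and was 0.729 and 0.792 and 0.0975 and 0.0949 with TMZ. COL4A2 over COL4A1 was 2.55 and 2.68 in untreated Surv-GFP, 2.09 and 2.24 with TMZ, 1.48 and 1.55 in untreated SurvNESmut-GFP and 1.68 and 1.72 with TMZ. COL6A1 over COL6A2 varied least, between 0.710 and 0.964 over the 8 libraries. COL6A3 over COL6A1 was 0.00213 and 0.00215 in untreated Surv-GFP and 0.00869 and 0.00808 in untreated SurvNESmut-GFP. COL9A1 over COL9A3 was 0.0146 and 0.0123 in untreated Surv-GFP, 0.00168 and 0.00285 with TMZ and at most 0.000441 in the 4 SurvNESmut-GFP libraries.

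**Figure D5:**
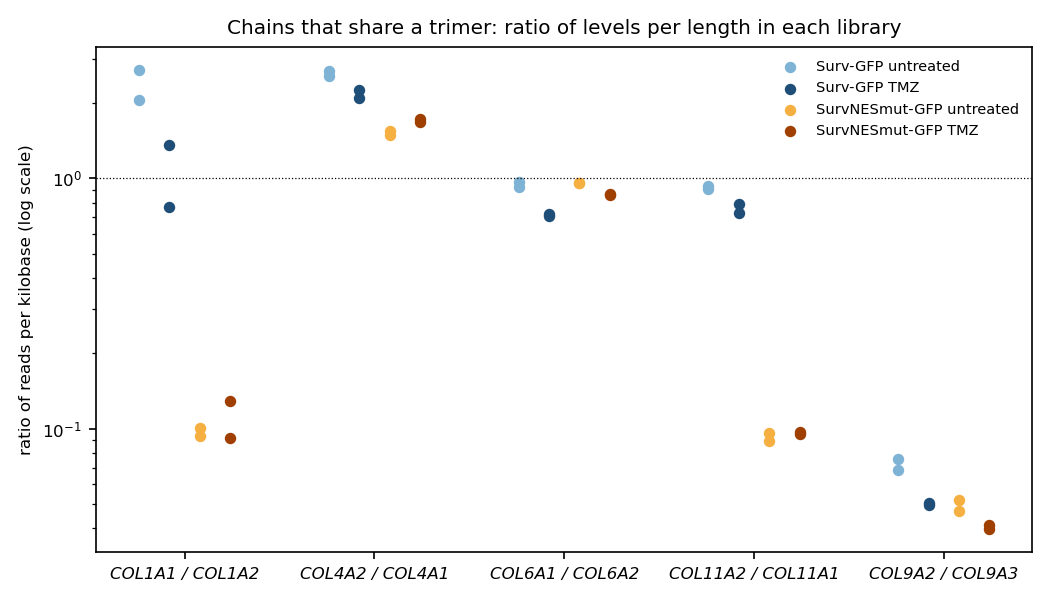
Ratio of levels per length between chains of a shared trimer in each library, on a log axis with a dotted line at 1, with 1 point per library. COL1A1 over COL1A2 and COL11A2 over COL11A1 lie near 0.1 in SurvNESmut-GFP and far above it in Surv-GFP, while the other 3 ratios drawn differ less between the clones.

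The genes listed as folding, processing, cross-linking or binding collagen, or as cleaving it or its peptides, were read in 6 lists of 78 genes in all, of which 56 were tested. With TMZ, 14 of them rose and 27 fell in Surv-GFP (median log2 fold change -0.10), 12 rose and 20 fell in SurvNESmut-GFP (median -0.07), and 18 had a larger and 13 a smaller effect in SurvNESmut-GFP. Of all tested genes, 30.1% rose and 28.9% fell in Surv-GFP, and 18.6% rose and 19.1% fell in SurvNESmut-GFP. A larger effect in SurvNESmut-GFP was found for 16.6% of them and a smaller one for 20.2%. Among 22 tested folding and modifying genes, 7 rose and 9 fell in Surv-GFP and 5 rose and 6 fell in SurvNESmut-GFP. SERPINH1, the collagen chaperone HSP47, stood at 1226 and 1150.4 CPM in untreated Surv-GFP, 669 and 726 CPM with TMZ, 388 and 351 CPM in untreated SurvNESmut-GFP and 316 and 322 CPM with TMZ. It was lower in untreated SurvNESmut-GFP, where collagen reads were higher (log2 fold change -1.69, SE 0.06, adjusted p = 3.63e-13), and fell with TMZ in Surv-GFP (log2 fold change -0.77, SE 0.06, adjusted p = 6.08e-09) and less in SurvNESmut-GFP (log2 fold change -0.21, SE 0.06, adjusted p = 0.00823; difference 0.56, adjusted p = 5.05e-05). P4HA1, a catalytic chain of prolyl 4-hydroxylase, fell with TMZ in SurvNESmut-GFP (log2 fold change -0.63, SE 0.06, adjusted p = 9.45e-07) with -0.03 in Surv-GFP (adjusted p = 0.663; difference -0.60, adjusted p = 5.91e-05). P4HA2, the other such chain, rose slightly in SurvNESmut-GFP (0.21, adjusted p = 0.00322). PLOD2, a lysyl hydroxylase, fell in both clones, by 0.23 and 0.15 on the log2 scale, and PLOD3, another one, rose in both (0.15 and 0.31). P3H2, a prolyl 3-hydroxylase, went from 14.5 and 14.8 to 38.0 and 39.1 CPM in Surv-GFP and from 59.5 and 58.0 to 45.2 and 50.4 CPM in SurvNESmut-GFP, a difference of effects of -1.69 (adjusted p = 4.18e-09). FKBP14, a prolyl isomerase of the endoplasmic reticulum, rose in Surv-GFP (0.73, adjusted p = 3.98e-08) with -0.13 in SurvNESmut-GFP (adjusted p = 0.176). P3H3 and P3H4 fell in Surv-GFP (by 0.62 and 0.41 on the log2 scale), P3H4 rose in SurvNESmut-GFP (0.23), CRTAP rose there too (0.29) and fell by 0.11 on the log2 scale in Surv-GFP, and KDELR3 fell in both clones (by 0.43 and 0.52).

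Of 4 tested genes for procollagen processing, 1 rose and 2 fell in each clone. Beside this, 30.1% and 28.9% of all tested genes did so in Surv-GFP and 18.6% and 19.1% in SurvNESmut-GFP. PCOLCE, an enhancer of the C-proteinase, fell in Surv-GFP (log2 fold change -0.72, SE 0.09, adjusted p = 3.86e-06) and SurvNESmut-GFP (log2 fold change -0.41, SE 0.09, adjusted p = 0.00198). PCOLCE2 fell in Surv-GFP (-0.85), ADAMTS3 in SurvNESmut-GFP (-0.49), and BMP1, the C-proteinase itself, rose in both (0.16, adjusted p = 0.0444, and 0.39, adjusted p = 2.16e-04). Of 5 cross-linking oxidases only LOXL2 and LOXL3 were tested, and both fell in both clones. LOX had at most 0.252 CPM in any library. LOXL2 fell more in Surv-GFP (-0.86) than in SurvNESmut-GFP (-0.18, difference 0.67, adjusted p = 8.69e-07), and LOXL3 less (-0.19 and -0.70, difference -0.51, adjusted p = 1.61e-04).

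Among 9 tested regulators of fibrils, 2 rose and 5 fell in Surv-GFP, beside 30.1% and 28.9% of all tested genes. In SurvNESmut-GFP 1 rose and 3 fell, beside 18.6% and 19.1%. THBS2, a matricellular thrombospondin, stood at 923 and 951 CPM in untreated Surv-GFP, 1679 and 1741 CPM with TMZ, 1945 and 1909 CPM in untreated SurvNESmut-GFP and 1438 and 1578 CPM with TMZ. It rose in Surv-GFP (0.87) and fell in SurvNESmut-GFP (-0.35), with a difference of -1.22 (adjusted p = 1.86e-09). THBS1 was 136 ± 9.06 CPM in untreated Surv-GFP and 1957 ± 50.1 CPM in untreated SurvNESmut-GFP (log2 fold change 3.85, SE 0.09, adjusted p = 2.75e-15) and rose with TMZ in the latter (0.34). SPARC, which binds fibrillar and type IV collagen, fell in Surv-GFP (-0.44) with 0.03 in SurvNESmut-GFP (adjusted p = 0.656; difference 0.47, adjusted p = 6.69e-05). LUM, the proteoglycan lumican, fell in Surv-GFP (-0.68), BGN (biglycan) rose there (0.24, adjusted p = 0.0474), and FN1 (fibronectin) fell in SurvNESmut-GFP (-0.22, adjusted p = 0.0209).

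Of 10 tested receptors, 3 rose and 2 fell in Surv-GFP, beside 30.1% and 28.9% of all tested genes. In SurvNESmut-GFP 3 rose and 5 fell, beside 18.6% and 19.1%. ITGA2, a subunit of a collagen-binding integrin, rose in Surv-GFP (log2 fold change 1.02, SE 0.07, adjusted p = 3.20e-09) and SurvNESmut-GFP (log2 fold change 0.91, SE 0.07, adjusted p = 2.75e-08), and the receptor kinase DDR2 did so as well (0.81 and 0.84). DDR1, the second such kinase, rose in Surv-GFP (0.29) and fell in SurvNESmut-GFP (-0.55, difference -0.84, adjusted p = 9.14e-05). MRC2, an endocytic receptor that takes up collagen, fell in both (-0.83 and -0.41), and so did CSPG4, more in SurvNESmut-GFP (-0.37 and -1.54, difference -1.17, adjusted p = 3.78e-04), whose libraries a and b differed, at 201 and 340.4 CPM with TMZ. Of 9 tested proteases listed for collagen or its peptides, 1 rose and 7 fell in Surv-GFP, beside 30.1% and 28.9% of all tested genes. In SurvNESmut-GFP 2 rose and 2 fell, beside 18.6% and 19.1%. MMP2, a gelatinase, was 1267 and 1126 CPM in untreated Surv-GFP, 738 and 861 CPM with TMZ, 1316 and 1305 CPM in untreated SurvNESmut-GFP and 1434 and 1535 CPM with TMZ, so that it fell in Surv-GFP (-0.58) and rose in SurvNESmut-GFP (0.18, adjusted p = 0.0427). MMP15 fell in Surv-GFP (-1.39) with a change of 0.06 in SurvNESmut-GFP (difference 1.45, adjusted p = 6.08e-08), and MMP14, a membrane-bound collagenase, rose in both (0.27 and 0.36). FAP and CTSK (cathepsin K) fell in both clones, FAP by 0.55 and 1.14 and CTSK by 0.64 and 0.43 on the log2 scale, and PREP fell in Surv-GFP (-0.64).

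Several small changes of these partner genes rested on single libraries or on the processing. By DESeq2 the calls of BMP1 (adjusted p = 0.187), BGN (0.0965), CSPG4 (0.257), DDR1 (0.150) and PLOD3 (0.0575) in Surv-GFP were lost. So were those of FN1 (0.150) and MMP2 (0.0584) in SurvNESmut-GFP. With library size alone as scaling, BMP1 (0.0705) and BGN (0.0625) lost theirs in Surv-GFP and PLOD2 (0.0725) in SurvNESmut-GFP. With the replicate letter as a block, CRTAP (0.0611) and BMP1 (0.0548) lost theirs in Surv-GFP and MMP2 (0.0513) in SurvNESmut-GFP. In Surv-GFP, the calls of CRTAP (without library a, 0.134, or b, 0.142, of untreated Surv-GFP or a of TMZ-exposed Surv-GFP, 0.243), PLOD3 (without library b of untreated, 0.153, or TMZ-exposed Surv-GFP, 0.356), LOXL3 (without library a of untreated, 0.136, or TMZ-exposed Surv-GFP, 0.0780) and FAP (without library a of untreated, 0.109, or TMZ-exposed Surv-GFP, 0.124) were lost, each value being the adjusted p without that library. BMP1 and BGN lost theirs without library b of untreated Surv-GFP (0.392 and 0.313) or of TMZ-exposed Surv-GFP (0.578 and 0.552), DDR1 without the same libraries (0.0892 and 0.158) and CSPG4 without library a of untreated (0.255) or TMZ-exposed Surv-GFP (0.245). In addition, the calls of CRTAP, BMP1, BGN and CSPG4 in Surv-GFP were also lost without library a or without library b of untreated SurvNESmut-GFP (adjusted p from 0.0510 to 0.0686). In SurvNESmut-GFP, SERPINH1 and P3H4 lost their calls without library a of the untreated group (0.135 and 0.0601), and PLOD2 without library b of the untreated group (0.148) or a of the TMZ group (0.0972). FN1 was lost without library a of the untreated (0.174) or TMZ group (0.0884), MMP2 without library a (0.142) or b (0.176) of the untreated or b of the TMZ group (0.0938), and CTSK without library a (0.0955) or b (0.126) of the untreated or a of the TMZ group (0.368).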

How the data were processed

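Libraries of a pair of stable LN229 clones, untreated or exposed to TMZ, fall by their titles into 4 groups of 2, and the code in each title identifies its column in the count table. The authors deposited whole-number read counts per gene symbol with no scaling. Of its rows, 2 name no gene (11.2% to 14.3% and 1.19% to 1.28% of all reads) and were left out. Per the submitters' processing notes, STAR 2.5.0b, Cufflinks 2.2.1 and edgeR were used. For the genome build, annotation, counter and strandedness a name was not given in the sources used here. Reads of exons that overlap a gene on the other strand therefore cannot be assigned to a strand. The results of the authors' own edgeR comparisons (5 tables with fold changes, mean expression, F and p-values) were not used.

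All 8 libraries entered a single model with 4 group means in edgeR 4.0.16 and limma 3.58.1 (R 4.3.3), with TMM, edgeR's filter on low counts and the quasi-likelihood F test in its legacy form. Benjamini-Hochberg adjustment ran over 14201 genes at a threshold of 0.05. The SE is the log2 fold change divided by the root of F. The script was tested on simulated data. Alternatives were DESeq2 1.42.0, other scalings, filters and dispersion methods, the replicate letter as a block, a fit to the compared libraries alone, and every library omitted once. Intervals and limits for counts of 0 (up to 3 counts) cover counting error only.

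Exon lengths came from GENCODE release 29 and promoter windows from RefSeq. The classes and lists of partner genes and markers were written from general knowledge, and members and lists were chosen with earlier results of these data known. Named genes were all chains, of the partner lists SERPINH1, P4HA1, P4HA2, PLOD2, LOX and the 2 members per list and direction with the lowest p for each TMZ effect and for their difference, and BIRC5 and CDKN1A.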

Additional observations from a re-analysis of the deposited data

Results flagged for a closer look

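The change with TMZ differed between the clones for 17 collagen chains by the test of the difference itself (edgeR's quasi-likelihood F test, adjusted p below 0.05), which marks them for a closer look. As TMZ effect in SurvNESmut-GFP minus that in Surv-GFP on the log2 scale, the signed change was lower in SurvNESmut-GFP for COL3A1 (-2.64), COL1A2 (-0.97), COL19A1 (-0.84), COL11A1 (-0.41), COL8A1 (-0.30), COL6A2 (-0.28) and COL9A3 (-0.22). It was higher for COL4A5 (0.46), COL27A1 (0.46), COL4A2 (0.54), COL18A1 (0.57), COL7A1 (0.63), COL5A1 (0.93), COL22A1 (1.04), COL16A1 (1.11), COL8A2 (1.18) and COL2A1 (2.21). A lower value can be a deeper fall in SurvNESmut-GFP, as for COL11A1, and a higher one a weaker fall, as for COL18A1. The tests of these differences did not hold equally well. Those of COL1A2, COL2A1, COL8A1, COL8A2 and COL9A3 were lost when single libraries were left out, as given with each chain. By DESeq2 those of COL8A2 (adjusted p = 0.100) and COL9A3 (0.0739) were lost too. For COL2A1 DESeq2 gave no adjusted p, so that its difference was not called there either.

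Among the named partner genes the same test was passed by 22 genes. The signed effect was lower in SurvNESmut-GFP for P3H2 (-1.69), THBS2 (-1.22), CSPG4 (-1.17), FKBP14 (-0.86), DDR1 (-0.84), P4HA1 (-0.60), FAP (-0.60), LOXL3 (-0.51) and ADAMTS3 (-0.43). It was higher for P4HA2 (0.27), CRTAP (0.40), MRC2 (0.43), SPARC (0.47), P3H3 (0.55), SERPINH1 (0.56), P3H4 (0.64), LOXL2 (0.67), PREP (0.69), LUM (0.70), MMP2 (0.76), PCOLCE2 (0.78) and MMP15 (1.45). A lower effect can again be a deeper fall, as for CSPG4, and a higher one a weaker fall, as for SERPINH1. Of these, the difference was lost for FAP in 10 settings, among them each library left out except b of TMZ-exposed SurvNESmut-GFP (adjusted p up to 0.189). It was lost for MRC2 without library a of untreated Surv-GFP (adjusted p = 0.0705), of TMZ-exposed Surv-GFP (0.0859) or of untreated SurvNESmut-GFP (0.0560), and for PCOLCE2 without library a of TMZ-exposed Surv-GFP (0.0757) or library b of untreated SurvNESmut-GFP (0.0968). By DESeq2 the differences of ADAMTS3 (adjusted p = 0.0662) and MRC2 (0.0763) were lost.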

How the results depend on the processing

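With each library left out in turn, the lone library of its group being assumed to vary like the others, the number of collagen chains that rose with TMZ in Surv-GFP ranged from 3 to 7 (5 with all libraries; 3 without b of TMZ-exposed Surv-GFP), the number that fell in SurvNESmut-GFP from 7 to 12 (11; 7 without a of untreated SurvNESmut-GFP), and the number with a smaller TMZ effect in SurvNESmut-GFP from 4 to 7 (7; 4 without b of untreated or of TMZ-exposed Surv-GFP). For partner genes, those that rose in Surv-GFP ranged from 9 to 16 (14; 9 without b of TMZ-exposed Surv-GFP), and those with a larger effect in SurvNESmut-GFP from 11 to 23 (18; 11 without a of TMZ-exposed Surv-GFP). By DESeq2, 9 partner genes rose in Surv-GFP. With library size alone as scaling, the summed levels in untreated SurvNESmut-GFP were 1947 CPM for fibrillar, 2634 CPM for basement membrane, 3332 CPM for other and 7913 CPM for all chains, and with DESeq2 size factors 3392 CPM for other and 8056 CPM for all chains. The causes were not tested. In 307 other such comparisons of counts and sums with an alternative, the value stayed within 1.5 times the count or 1 SD. For sums with 1 of 2 libraries left out this was fixed in advance, since that shift is always below the SD of the pair. Those sums thus tell nothing on robustness. Among named genes, no log2 fold change that passed the threshold in either setting changed its sign. Of the calls of chains, 14 of 19 held under all alternatives for TMZ in Surv-GFP, 15 of 20 in SurvNESmut-GFP, 12 of 17 for the difference of effects, and 28 of 31 and 26 of 28 between the clones without and with TMZ.

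The letters a and b recur in all groups. The deviations of same-lettered libraries correlated between -0.0671 and 0.0832 across groups, so no pairing by letter was seen. Noise of the single libraries can hide a pairing in this measure, so whether the letters are paired is not settled. With the replicate letter as a block, 5 chains rose and 14 fell in Surv-GFP, 9 rose and 11 fell in SurvNESmut-GFP, 11 had a larger and 7 a smaller effect, and 19 and 22 were higher and 11 and 6 lower in SurvNESmut-GFP without and with TMZ.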

Other observations

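Genes of cartilage matrix and of its SOX regulators, a list of 18 genes written after values had been seen, were followed because chains of types II, IX and XI are collagens of cartilage. Of the 11 tested, 6 fell with TMZ in Surv-GFP (median log2 fold change -0.50), where 28.9% of all tested genes fell, while 1 rose and 5 fell in SurvNESmut-GFP (median -0.07), where 18.6% rose and 19.1% fell. Without TMZ, 2 were higher and 5 lower in SurvNESmut-GFP, beside 34.7% and 29.4% of all tested genes. SOX9, the main transcription factor of chondrocytes, did not exceed 0.166 CPM in any library. SOX5 and SOX6, which act together with it, were well above this. SOX6 stood at 99.2 and 98.6 CPM in untreated Surv-GFP, 92.1 and 94.1 CPM with TMZ, 45.4 and 48.6 CPM in untreated SurvNESmut-GFP and 31.2 and 37.8 CPM with TMZ, and was lower in untreated SurvNESmut-GFP (log2 fold change -1.07, SE 0.07, adjusted p = 7.05e-10). SOX5 fell with TMZ in both clones (log2 fold changes -0.50 and -0.93). WWP2, a ubiquitin ligase, stood at 399 and 379 CPM in untreated Surv-GFP, 187 and 205 CPM with TMZ, 98.7 and 94.3 CPM in untreated SurvNESmut-GFP and 79.4 and 77.8 CPM with TMZ. The clones did not overlap, and WWP2 was lower in untreated SurvNESmut-GFP (log2 fold change -2.01, SE 0.06, adjusted p = 3.17e-14). ACAN, the proteoglycan aggrecan, stood at 22.4 and 18.5 CPM in untreated Surv-GFP and 4.71 and 9.18 CPM with TMZ, while the 4 SurvNESmut-GFP libraries held 0 or 1 count each. S100B, a calcium-binding protein of glia and cartilage, stood at 798 and 756, 248 and 279, 41.2 and 40.1 and 14.3 and 19.3 CPM in libraries a and b of the same groups, lower in SurvNESmut-GFP and lower with TMZ in either clone. MATN2 and MATN3, matrilins of the matrix, were higher in SurvNESmut-GFP. MATN3 stood at 1.68 and 1.71 CPM in untreated Surv-GFP and 10.6 and 11.9 CPM in untreated SurvNESmut-GFP (log2 fold change 2.73, SE 0.16, adjusted p = 3.33e-10).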
